A study of Mus musculus with 9 samples.

Results

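NODAL is a secreted signal of the TGF-beta family that acts through activin receptors together with a co-receptor, Cripto, encoded by Tdgf1. The activated receptors phosphorylate SMAD2 and SMAD3, which enter the nucleus with SMAD4 and partners such as FOXH1 and switch on Nodal itself and the genes of its feedback inhibitors, Lefty1 and Lefty2. In the mouse fetal testis the pathway is known from XY germ cells, where it becomes active soon after sex determination, has been linked to FGF9 from the somatic cells, and is associated with the male germ cell fate. The genes described here are these 4, Nodal, Tdgf1, Lefty1 and Lefty2, chosen by name as the ligand, its co-receptor and its inhibitors. All 4 were found by their mouse Ensembl identifiers among 15300 genes tested.

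RNA was sequenced from C57BL/6 mouse gonads at E13.5, freed of mesonephros, in 3 groups with 3 samples each. XX-WT samples were ovaries and XY-WT samples were testes, both homozygous for the floxed Sox9 allele and labelled wild type. XY-KO samples were testes with the same floxed alleles and an AMH-Cre transgene, whose promoter is active in Sertoli cells, so that Sox9 is deleted in the supporting cells and not, by design, in germ cells. Whether each sample came from 1 fetus or from pooled fetuses is not given, so the errors measure the spread between samples, which may be technical. What the deposited tables give is each gene's limma result for group against group, with no value for a single sample and no read totals, so no sample can be shown or left out. The level of a gene in each group was therefore derived from the authors' mean and fold changes, and its standard error (SE) from the SEs of the 3 comparisons. Levels are in log2 CPM, counts scaled to library size; the derived CPM of all genes summed to between 973276 and 1019093 per group. A gene was called at a limma adjusted p under 0.05.

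Marker genes went with the labels of the tissues. The authors' deposited table gave Sox9 a log2 fold change of -2.76 in XY-KO against XY-WT (SE 0.172, limma adjusted p 8.93e-07). Some Sox9 RNA remained: its derived level was 6.48 log2 CPM in XY-WT, 3.72 in XY-KO and 2.01 in XX-WT. Against XX-WT the authors' deposited table put Sox9 in XY-KO higher by 1.71 (limma adjusted p 8.14e-05). Of 9 Sertoli markers, 9 were lower in XX-WT, and all 6 pre-granulosa markers were higher there. Over all genes, 12.4% were lower and 10.9% higher in XX-WT than in XY-WT. Germ cell RNA was present in all 3 groups: Dazl, an RNA-binding protein of germ cells, stood at a derived level of 7.54 log2 CPM in XY-WT, 7.19 in XY-KO and 8.27 in XX-WT. In whole gonads, fewer cells of a type and less RNA per cell cannot be told apart, and which cells made the RNA of the 4 genes was not tested.

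Lefty1 and Lefty2 are neighbours on mouse chromosome 1 with closely related coding sequences, so how well their reads can be separated bears on every value below. Each coding sequence has 1104 bases; they align without gaps and are 91.8% identical, with 90 differing positions.

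The longest stretch that the longest transcripts of Lefty1 and Lefty2 share is 140 bases, shorter than a read of 150 nt. Of the 1471 windows of 150 bases in the Lefty1 transcript, 0 occur unchanged in Lefty2. Among windows of 50 bases, the share is 17.9% of Lefty1 and 11.6% of Lefty2, so trimmed or partly aligned reads could be ambiguous over those stretches, and the separate values of the pair carry that uncertainty. Tdgf1 shares a stretch of 154 bases with its processed pseudogene Tdgf1-ps1, covering 5 of 1783 windows of 150 bases. Nodal shares no stretch longer than 13 bases with the transcripts of the other 3 genes.

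The 4 genes were expressed in both kinds of testis and were low in the ovary. The derived level of Lefty2 was 4.62 ± 0.18 log2 CPM in XY-WT (SE, n = 3), 4.52 ± 0.18 in XY-KO and -2.41 ± 0.88 in XX-WT. Lefty1 stood at 1.30 ± 0.31 in XY-WT, 0.54 ± 0.36 in XY-KO and -4.19 ± 0.92 in XX-WT. In both testis groups the 2 inhibitor genes were therefore above their ovarian level, and the 95% intervals of the ovary and of either testis group did not overlap. For the co-receptor gene Tdgf1 the levels were 0.79 ± 0.25 in XY-WT, 0.26 ± 0.28 in XY-KO and -4.71 ± 0.67 in XX-WT. The ligand gene Nodal was at 1.03 ± 0.31 in XY-WT, 0.85 ± 0.30 in XY-KO and -1.27 ± 0.52 in XX-WT. The highest derived level of the 4 in the ovary was that of Nodal, and in both testis groups that of Lefty2.

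Genes that the XX genome lacks show what a level near the end of the scale means. The 5 measured Y-linked genes did not share 1 floor in XX-WT: their derived levels were -4.70 log2 CPM for Ddx3y, -4.69 for Zfy1, -3.61 for Eif2s3y, 0.14 for Uty and 0.54 for Kdm5d, and the lowest level of any gene there was -4.81. Why Uty and Kdm5d stood higher was not tested. Tdgf1 in XX-WT, at -4.71, was level with the lowest of these genes, and the interval of Lefty1 in XX-WT, -6.14 to -2.24, included the 3 lowest. The interval of Lefty2, -4.29 to -0.53, included Eif2s3y, and that of Nodal, -2.37 to -0.17, lay between the 3 lowest and Uty. Whether any of the 4 genes was expressed in the ovary is therefore not settled by these levels. For Tdgf1 and Lefty1 the fold changes against XX-WT depend on any offset added before logs were taken, so those genes are given on the log2 scale only. The same limit applies, less strongly, to the fold of Lefty2.

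**Figure D1:**
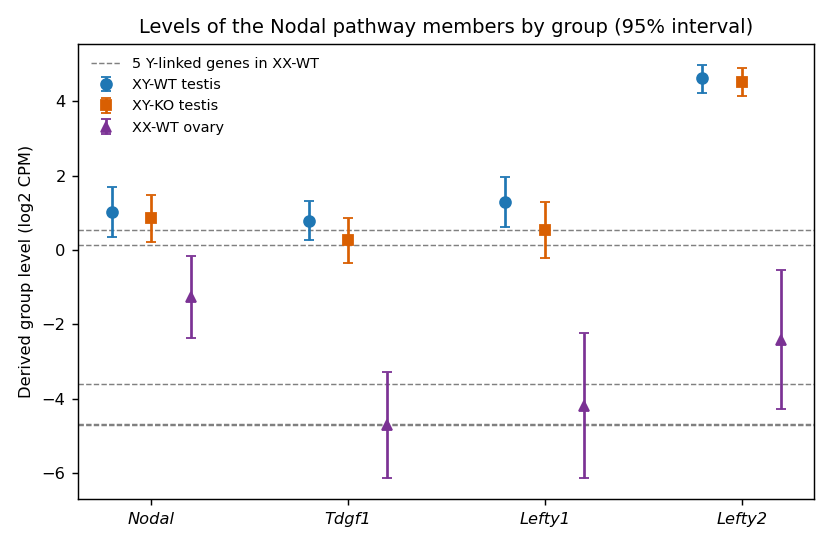
Derived level of each gene (vertical axis, log2 CPM) in XY-WT testis (circles), XY-KO testis (squares) and XX-WT ovary (triangles), with 95% intervals; dashed lines are the levels of 5 Y-linked genes in XX-WT, from -4.70 for Ddx3y to 0.54 for Kdm5d. Both testis groups lie above the ovary for all 4 genes, and Tdgf1 in XX-WT, at -4.71, lies on the lowest lines.

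Levels of different genes were compared per kilobase of the longest transcript. On that scale Lefty2 was the most abundant of the 4 in XY-WT, at 3.31 log2 CPM per kilobase, followed by Lefty1 at 0.60, Nodal at -0.04 and Tdgf1 at -0.16. Lefty2 exceeded its paralogue Lefty1 by 6.54-fold there, a difference of 2.71 on the log2 scale (95% interval 1.95 to 3.47 by size). The remaining 3 could not be ordered: the interval of Nodal minus Lefty1 was -1.58 to 0.30, and that of Nodal minus Tdgf1 was -0.72 to 0.97. In XY-KO the per-kilobase levels were 3.22 for Lefty2, -0.15 for Lefty1, -0.21 for Nodal and -0.69 for Tdgf1, again with Lefty2 apart and the other 3 within their errors. In XX-WT the per-kilobase values were Nodal at -2.34, Lefty2 at -3.72, Lefty1 at -4.89 and Tdgf1 at -5.66. There no order among Lefty2, Lefty1 and Tdgf1 could be given, since all 3 intervals of their differences included 0, as did that of Nodal minus Lefty2 (-0.80 to 3.55). The interval of Nodal minus Tdgf1 was 1.52 to 5.12 and that of Nodal minus Lefty1 was 0.30 to 4.79, both against genes near the end of the scale.

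The comparison of XX-WT with XY-WT gives the sex difference of the pathway genes in control gonads. All 4 were lower in the ovary, in a comparison where 23.3% of all genes were called, 12.4% lower and 10.9% higher. By the authors' deposited table, Lefty2 had the largest log2 fold change of the 4, at -7.03 (SE 0.899, limma adjusted p 3.18e-05), which corresponds to a level 130-fold lower (95% interval 34.6 to 491). This placed Lefty2 at rank 9 of 15300 genes by size of fall. Both the fold and the rank rest on a low and imprecise ovarian level, -2.41 ± 0.88 log2 CPM. They therefore depend on any offset added before logs were taken. For the co-receptor gene Tdgf1 the authors' deposited table gave -5.50 (SE 0.714, adjusted p 3.60e-05), and for Lefty1 it gave -5.49 (SE 0.969, adjusted p 0.000628), at ranks 35 and 36. Those ranks carry the same limit. The ligand gene Nodal differed least: the authors' deposited table put it at -2.30 (SE 0.604, adjusted p 0.0115), or 4.92-fold lower (2.02 to 12.0), at rank 293.

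The spread around these differences was wide. Among 2160 genes whose mean level was within 0.5 log2 units of that of Lefty2, the median SE of the same comparison was 0.239, against 0.899 for Lefty2, whose ovarian level was the imprecise term. The others lay closer to the median SE of genes of like mean. These were 0.569 against 0.969 for Lefty1, 0.427 against 0.604 for Nodal and 0.66 against 0.714 for Tdgf1. Tdgf1 was a low gene of the table, with only 0.869% of genes at a lower mean over all samples, and Lefty1 had 2.11% below it. Such a gene enters a filtered table through the groups in which it is high: of the 321 genes with a mean like that of Tdgf1, 46.4% were called between XX-WT and XY-WT. The share was 25.3% for Lefty1, 21.9% for Lefty2 and 18.9% for Nodal, beside 23.3% of all genes. How low genes were filtered is not given in the sources used here. The count of 4 lower is read with that in mind, and the genes were picked with this sex difference known.

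**Figure D2:**
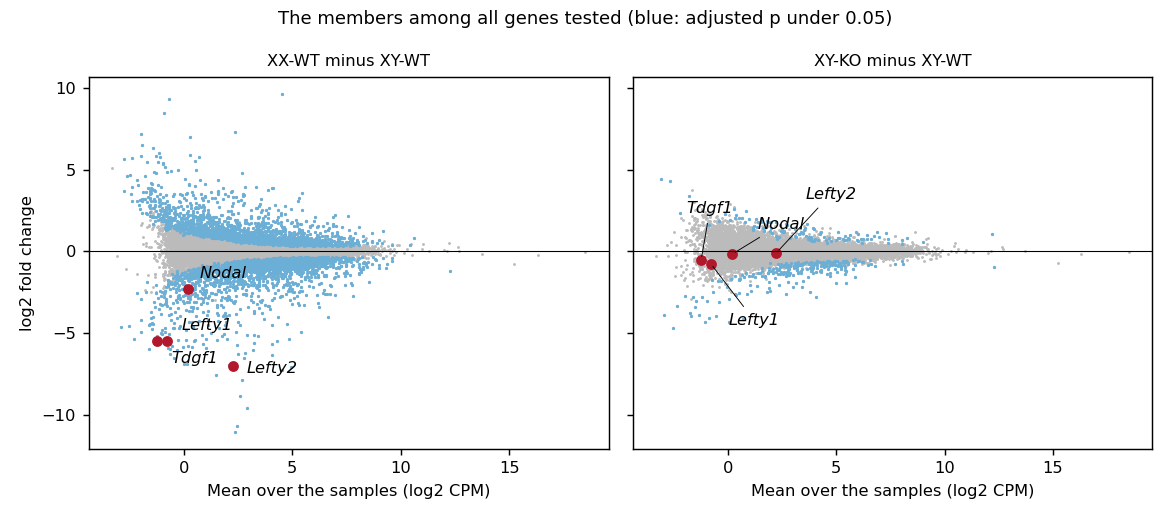
Log2 fold change (vertical axis) against the authors' mean level over all samples (horizontal axis, log2 CPM) for all genes tested, in XX-WT minus XY-WT (left) and XY-KO minus XY-WT (right); blue dots have an adjusted p under 0.05 and red dots are the 4 pathway genes. They lie between -2.30 and -7.03 on the left and between -0.09 and -0.75 on the right.

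The comparison of XY-KO with XY-WT sets testes with Sox9 deleted, by design, in Sertoli cells beside control testes. Sox9 RNA was lower in XY-KO but still above its level in XX-WT, and any effect of what remained was not tested. None of the 4 passed the test by limma, at an adjusted p under 0.05 or at an unadjusted p under 0.05, in a comparison where 2.27% of all genes were called, 0.699% higher and 1.57% lower. The authors' deposited table gave Lefty2 -0.09 (SE 0.25, adjusted p 0.877), with a 95% interval from -0.63 to 0.44. For Nodal the authors' deposited table gave -0.17 (SE 0.432, adjusted p 0.867), with an interval from -1.09 to 0.75. Larger point values came with wide intervals. In the authors' deposited table Tdgf1 stood at -0.53 (SE 0.372, adjusted p 0.468; interval -1.32 to 0.26) and Lefty1 at -0.75 (SE 0.473, adjusted p 0.412; interval -1.76 to 0.25).

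These intervals set what the comparison can show. For Lefty2 any fall beyond 0.63 on the log2 scale lies outside the 95% interval, while for Lefty1 a fall of up to 1.76 lies inside it. A p that misses the threshold does not show that the levels were equal. All 4 point values were below 0, but for Lefty2 and Nodal the sign depends on the processing: with the trend of fold change on GC content and transcript length removed they were 0.04 and 0.07. That trend was fitted on genes at or above median expression, and the 4 genes lie below that median. Under that setting 116 genes were called higher and 141 lower in XY-KO, against 107 and 240 without it, and the 4 genes still did not pass. General germ cell markers sat on the same side, with 11 of 12 point values below 0 and a median of -0.35, against a median of -0.01 over all genes, and a median of -0.35 for the 4 pathway genes.

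The comparison of XY-KO with XX-WT places the mutant testis against the ovary. All 4 genes were higher in XY-KO, where 18.3% of all genes were called, 9.16% higher and 9.11% lower. The XX-WT and XY-KO samples also serve in the other comparisons, so the 3 sets of values are not independent. The authors' deposited table gave 6.93 for Lefty2 (SE 0.899, adjusted p 4.75e-05), which is 122-fold higher (95% interval 32.4 to 460). That fold rests on the same low ovarian level of Lefty2 and depends in the same way on any offset. By the authors' deposited table Tdgf1 was higher by 4.97 (SE 0.726, adjusted p 0.000145) and Lefty1 by 4.74 (SE 0.985, adjusted p 0.00282). For Nodal the authors' deposited table gave 2.13 (SE 0.598, adjusted p 0.0205), or 4.37-fold higher (1.81 to 10.5). All 4 genes were thus called higher in the mutant testes than in the ovary, as in the control testes. The same limits of filtering and of picking the genes with the sex difference known apply to this count. Of genes with a mean like that of Tdgf1, 38.9% were called here. The share was 20.7% for Lefty1, 18.4% for Lefty2 and 15.3% for Nodal.

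**Figure D3:**
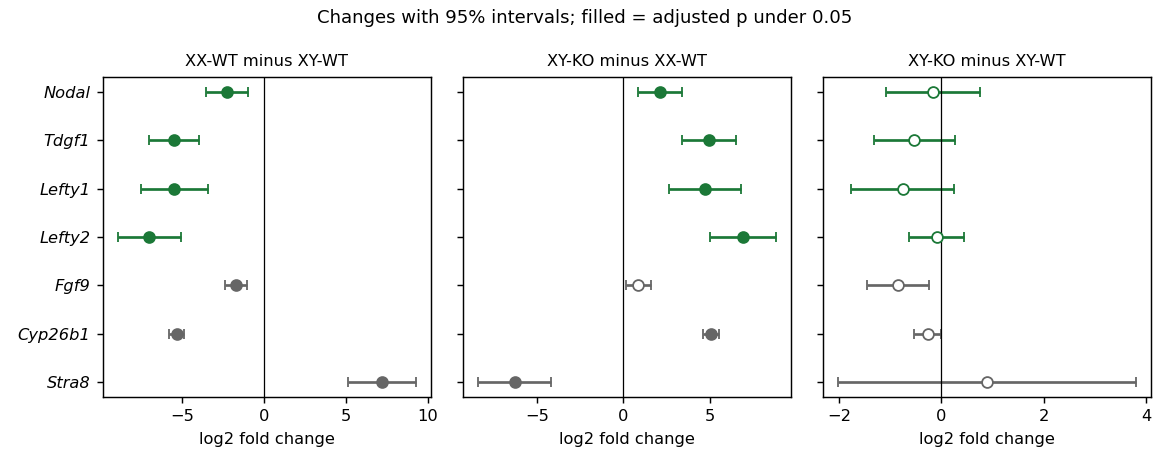
Log2 fold change (horizontal axis) with its 95% interval for the 4 pathway genes (green) and for Fgf9, Cyp26b1 and Stra8 (grey) in the 3 comparisons, each on its own axis range; filled points have an adjusted p under 0.05. The 4 pathway genes are filled on the left (-2.30 to -7.03) and in the middle (2.13 to 6.93), and open on the right, where all 4 intervals include 0.

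Genes tied to the pathway in XY germ cells from earlier mouse work were read beside it. Fgf9, a growth factor of Sertoli cells, had derived levels of 2.75 log2 CPM in XY-WT, 1.91 in XY-KO and 1.03 in XX-WT. The authors' deposited table gave it -1.72 in XX-WT against XY-WT (SE 0.317, limma adjusted p 0.000904). In XY-KO against XY-WT the authors' deposited table gave -0.84 (SE 0.283, unadjusted p 0.009049, limma adjusted p 0.131; interval -1.45 to -0.24), and against XX-WT 0.88 (adjusted p 0.0917). Neither of these last differences passed, so Fgf9 in XY-KO was called different from neither control. Cyp26b1 degrades retinoic acid and thereby keeps XY germ cells from meiosis. In XX-WT against XY-WT the authors' deposited table put it at -5.34 (adjusted p 3.92e-10), and in XY-KO against XY-WT at -0.27, which did not pass (adjusted p 0.262). Stra8, the retinoic acid responsive gene of meiotic entry, was at derived levels of -4.66 in XY-WT, -3.76 in XY-KO and 2.53 in XX-WT. By the authors' deposited table Stra8 was higher in XX-WT by 7.19 (adjusted p 5.55e-05), and its value in XY-KO against XY-WT was 0.89 (SE 1.37, adjusted p 0.773). The lowest derived level of any gene was -4.91 in XY-WT and -5.19 in XY-KO. Stra8 was thus near the end of the scale in both testis groups, and its fold changes depend on any offset. Nanos2, a male germ cell regulator, was not analysed here.

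Germ cell markers lay on the other side of 0 from the pathway genes in the ovary. Of 12 general germ cell markers, 7 were higher in XX-WT than in XY-WT and none was lower, with a median of 0.73. Over all genes, 10.9% were higher and 12.4% lower there. For Tfap2c, a germ cell specification factor, the authors' deposited table gave 1.81 (adjusted p 0.000124), for the piRNA gene Mael 1.43, the pluripotency factor Sox2 1.22, the stem cell factor Sall4 1.03, the RNA helicase Ddx4 0.80, Dazl 0.73 and the receptor Kit 0.50, all past the test. Dppa3 (-0.09) and Pou5f1 (-0.06), by the authors' deposited table, did not pass. The summed derived level of the 12 markers was 455 CPM in XY-WT, 377 in XY-KO and 699 in XX-WT, while that of the 4 pathway genes was 30.7, 27.4 and 0.695 CPM. The pathway sums mostly follow single genes: Lefty2 gave 24.5 CPM in XY-WT and 23.0 in XY-KO, and Nodal 0.414 in XX-WT. Dazl, the highest of the 12 markers at 7.54 log2 CPM in XY-WT and 8.27 in XX-WT, weighed most in the marker sum. By these sums the ovary samples held more RNA of the 12 markers and less RNA of Nodal, Tdgf1, Lefty1 and Lefty2. The rise was not shared by Dppa3 or Pou5f1. Against XX-WT, 9 of the 12 markers were lower in XY-KO and none was higher, against 9.11% and 9.16% of all genes. None of the 12 was called by limma between XY-KO and XY-WT. With 2.27% of all genes called there, none of 12 is near the general share. In that comparison 2 of the markers reached an unadjusted p under 0.05 in limma. By the authors' deposited table these were at -0.54 for Pou5f1 (adjusted p 0.142) and -0.61 for Sox2 (adjusted p 0.206). The part of germ cell number in the pathway values was not tested.

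Of 6 meiotic genes, 5 were higher in XX-WT (Stra8, the cohesin gene Rec8, the synaptonemal complex genes Sycp1 and Sycp3, and Meioc) and none was called in XY-KO against XY-WT. Their median was 3.14 in the first comparison and 0.16 in the second. Over all genes, 10.9% were called higher in the first comparison and 2.27% were called in the second. Against XX-WT, XY-KO was lower in the same 5, in a comparison where 9.11% of all genes were lower and 9.16% higher. Of 4 male germ cell genes measured, the authors' deposited table had the piRNA pathway genes Piwil2 (1.05) and Piwil4 (1.39) higher in XX-WT, and none was called in XY-KO against XY-WT. Against XX-WT, Piwil2 and Tdrd9 were lower in XY-KO.

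**Figure D4:**
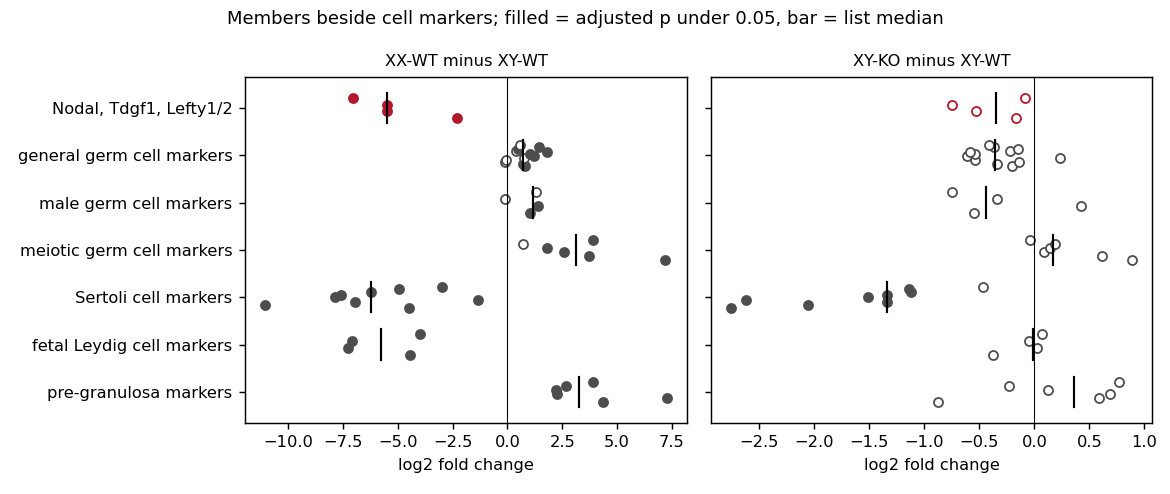
Log2 fold change (horizontal axis) of the 4 pathway genes and of cell marker lists in XX-WT minus XY-WT (left) and XY-KO minus XY-WT (right); each point is a gene, filled at an adjusted p under 0.05, and the bar is the list median. The pathway genes have a median of -5.49 on the left, where general germ cell markers have 0.73, and on the right, on a narrower axis, both lists have -0.35 and no filled point, while 8 of 9 Sertoli markers are filled.

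Somatic marker lists were read in the same way. The shares of all genes called were 23.3% in XX-WT against XY-WT and 18.3% in XY-KO against XX-WT. In XY-KO against XY-WT the share was 2.27%, so a short list with no called gene is near it. Sertoli markers had 8 of 9 lower in XY-KO than in XY-WT (Sox9, Amh, Dhh, Cldn11, Ptgds, Gdnf, Cst9 and Aard, but not Mro), with a median of -1.34 and a summed level of 566 CPM in XY-WT, 204 in XY-KO and 22.0 in XX-WT. The 4 fetal Leydig markers (Star, Cyp11a1, Cyp17a1 and Hsd3b1) were all lower in XX-WT, with a median of -5.76, and none was called in XY-KO against XY-WT, with a median of -0.01. All 6 pre-granulosa markers (Foxl2, Fst, Rspo1, Wnt4, Bmp2 and Runx1) were higher in XX-WT and none was called in XY-KO against XY-WT. Among endothelial markers, Pecam1 was higher and Cdh5 and Tek were lower in XX-WT, and of the macrophage and erythroid lists Adgre1 and Hbb-bh1 were higher there. Mesonephric Pax2, Pax8 and Ret were higher and Lhx1 was lower in XX-WT. None of these 4 lists had a member called in XY-KO against XY-WT. Against XX-WT, XY-KO was higher in 8 Sertoli markers, the 4 Leydig markers, Tek and Lhx1, and lower in Cldn11, the 6 pre-granulosa markers, Pecam1, Adgre1, Hba-a1, Hbb-bh1, Pax2, Pax8 and Ret. The 5 Y-linked genes measured were lower in XX-WT, and none was called in XY-KO against XY-WT. The part of somatic cells in the pathway values was not tested.

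Other parts of the pathway were read from 31 measured genes, grouped by role; Gdf1, Mstn, Cfc1, Cer1, Eomes, T and Gsc were not analysed here. Between XX-WT and XY-WT, 14 of the 31 were called, 4 higher and 10 lower in XX-WT, with a median of -0.25 against 0.00 over all genes. Over all genes, 23.3% were called there, 10.9% higher and 12.4% lower. In XY-KO against XY-WT none of the 31 was called by limma, where 5 had an unadjusted p under 0.05, and the median was -0.11. With 2.27% of all genes called there, none of 31 is near the general share. In XY-KO against XX-WT 10 were higher and 2 lower, against 9.16% and 9.11% of all genes.

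Of the 5 ligand genes measured, the 3 that encode inhibin and activin subunits were lower in the ovary. In the authors' deposited table the activin A subunit gene Inhba was at -3.99 (SE 0.37, adjusted p 1.21e-06), the inhibin alpha subunit gene Inha at -3.08 and the activin B subunit gene Inhbb at -2.18 in XX-WT. The derived levels of Inhba were 5.65 log2 CPM in XY-WT, 5.71 in XY-KO and 1.66 in XX-WT. Gdf3, a ligand that also uses Cripto, did not pass against XY-WT: the authors' deposited table gave 0.21 in XX-WT (adjusted p 0.725) and -0.55 in XY-KO (adjusted p 0.50). Gdf11, at 0.28 and 0.50 by the authors' deposited table, did not pass either. Of the proprotein convertases that can cleave NODAL-type precursors, Pcsk5 was lower in XX-WT by the authors' deposited table (-1.79, limma adjusted p 8.80e-08), while Furin (-0.28) and Pcsk6 (-0.27) did not pass.

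Receptor genes differed little. By the authors' deposited table the type II receptor gene Acvr2a was higher in XX-WT by 0.33 (adjusted p 0.0459), and Acvr1b, Acvr1c, Acvr2b and Tgfbr1 lay between -0.55 and -0.02 without passing. Acvr1c, which encodes the type I receptor ALK7, had derived levels of 1.03 log2 CPM in XY-WT, 1.95 in XY-KO and 0.48 in XX-WT. The authors' deposited table gave it 0.92 in XY-KO against XY-WT (SE 0.304, unadjusted p 0.008587, adjusted p 0.129) and 1.47 against XX-WT (adjusted p 0.00487). Acvr1c was the receptor gene called between XY-KO and XX-WT, where it was higher in XY-KO. Among extracellular inhibitors, Fst, whose product follistatin binds activin, was higher in XX-WT: the authors' deposited table gave 7.27 (SE 0.305, adjusted p 5.38e-10). Dand5, an antagonist of NODAL, and Fstl3, a follistatin relative, were at -0.30 and 0.35 by the authors' deposited table, and neither passed.

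Signal transducers differed little. Smad2, Smad3 and Smad4 lay between -0.10 and 0.16 in XX-WT and between -0.13 and 0.08 in XY-KO against XY-WT, none past the test. Foxh1, the SMAD partner that binds Nodal and Lefty enhancers, was at derived levels of 0.16 log2 CPM in XY-WT, -0.77 in XY-KO and 0.49 in XX-WT, and none of its 3 comparisons passed; the authors' deposited table gave -0.93 in XY-KO against XY-WT (SE 0.473, adjusted p 0.303). Of the negative regulators, 4 were lower in XX-WT: in the authors' deposited table the inhibitory Smad7 was at -1.04 (adjusted p 4.63e-05), the corepressors Tgif1 at -0.68, Skil at -0.64 and Ski at -0.45. Wwtr1, which encodes the SMAD-binding coactivator TAZ, was higher, at 0.44 by the authors' deposited table (adjusted p 0.0108). By the authors' deposited table Tgif2 (0.26), Trim33 (0.33) and Drap1 (-0.53) did not pass, and the first 2 had point values above 0.

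Among target genes, Pmepa1, a feedback target of TGF-beta and activin signals, was lower in XX-WT by the authors' deposited table (-1.40, adjusted p 4.12e-05), while Mixl1, a mesendoderm gene in gastrulation, was higher (2.31, adjusted p 0.00617). Neither was called in XY-KO against XY-WT, where the authors' deposited table gave -0.20 and 0.12.

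**Figure D5:**
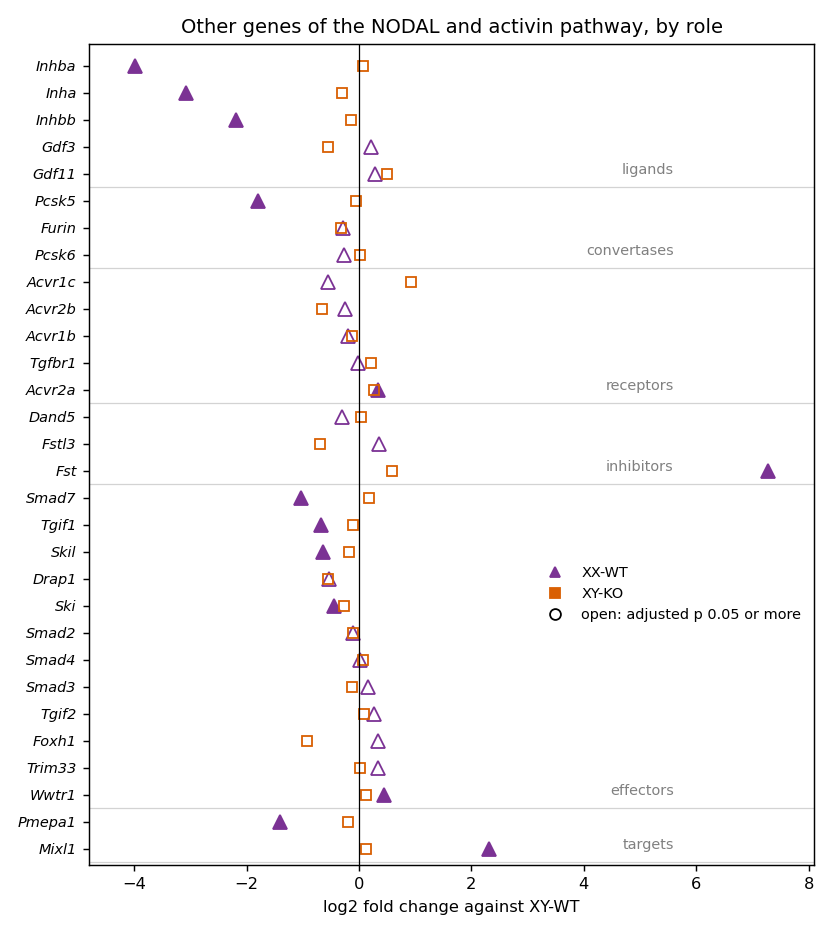
Log2 fold change against XY-WT (horizontal axis) of other pathway genes, ordered by role, in XX-WT (triangles) and XY-KO (squares); filled symbols have an adjusted p under 0.05. Filled triangles run from -3.99 for Inhba to 7.27 for Fst, and no square is filled.

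The genes with the most similar levels over the 3 groups were found by the distance between levels centred on each gene's mean, over 3 groups, which share the same samples. For Lefty2 they were Cyp17a1, Nts, Cyp11a1, Ren1 and Sfrp4, at distances of 0.0646 to 0.584 log2 units. Cyp17a1 and Cyp11a1 are steroid-making enzymes of fetal Leydig cells, and Ren1 encodes renin. For Tdgf1 they were Crhr1, Shh, Lefty1, Cyp26b1 and Sostdc1 (0.0276 to 0.21), and for Lefty1 they were Kcns2, Mal, Tdgf1, Crhr1 and Sostdc1 (0.0796 to 0.206). Tdgf1 and Lefty1 were among each other's 5 nearest genes, at a distance of 0.185. For Nodal the nearest were Chp2, Serpina3a, Efna5, Syt6 and Mrap (0.0362 to 0.072). Of these genes, the authors' deposited table called Sostdc1 (-0.79, adjusted p 0.0303) and Mal (-0.74, adjusted p 0.0232) between XY-KO and XY-WT. Every distance given was smaller than the SE of the pathway gene's own level in XX-WT. Those SEs were 0.88 for Lefty2, 0.67 for Tdgf1, 0.92 for Lefty1 and 0.52 for Nodal. Which genes are nearest is therefore not settled by these values.

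The chromosomal surroundings of the genes were read from GENCODE M21 on GRCm38. Lefty2 (ENSMUSG00000066652, chr1:180893108-180899103, plus strand) and Lefty1 (ENSMUSG00000038793, chr1:180935022-180938400, plus strand) are 35919 bases apart. Tdgf1 (ENSMUSG00000032494) is at chr9:110939603-110946158 on the minus strand and Nodal (ENSMUSG00000037171) at chr10:61417972-61425338 on the plus strand. No annotated gene overlaps any of the 4, so no annotated antisense gene shares their reads. Within 100000 bases of the Lefty pair, 8 other genes were tested, and 4 were lower in XX-WT and none was higher. Over all genes, 12.4% were lower and 10.9% higher, and whether these neighbours share control with the pair was not tested. The authors' deposited table gave Ephx1, an epoxide hydrolase, -3.86 (adjusted p 3.10e-06), the antisense gene 2210411M09Rik -3.03 and the ion channel gene Tmem63a -1.80. Because 2210411M09Rik lies within Tmem63a and strand use in counting is not given, reads of that pair cannot be told apart. Sde2, 24995 bases before Lefty2, did not pass (-0.34 by the authors' deposited table, adjusted p 0.125). Near Tdgf1, the authors' deposited table had Tmie higher in XX-WT (1.11, adjusted p 0.0139), while Lrrc2, at a distance of 5387 bases, did not pass (-1.33, adjusted p 0.052). Near Nodal, the authors' deposited table had Eif4ebp2 lower (-0.62, adjusted p 0.0381), and Pald1 and Lrrc20 did not pass. None of the 14 tested neighbours was called between XY-KO and XY-WT, the smallest limma adjusted p being 0.0809. With 2.27% of all genes called there, none of 14 is near the general share.

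All 4 genes were lower in the ovary, and the promoters of 2 of them, Nodal and Tdgf1, were matched in the promoter table and are shown. They run 5′ to 3′ from 250 bases before to 50 after the start, from RefSeq on GRCm38.p6, at chr10:61417722-61418021 (plus strand) and chr9:110946109-110946408 (minus strand). Capitals mark matches, none overlapping another, to 6 motifs searched on both strands: the SMAD box CAGAC, the FOXH1 core AATCCACA and its variant AATACACA, the SOX core ACAAT, the SOX/TCF core ACAAAG and the SP/KLF box GGGCGTGG.
Nodal: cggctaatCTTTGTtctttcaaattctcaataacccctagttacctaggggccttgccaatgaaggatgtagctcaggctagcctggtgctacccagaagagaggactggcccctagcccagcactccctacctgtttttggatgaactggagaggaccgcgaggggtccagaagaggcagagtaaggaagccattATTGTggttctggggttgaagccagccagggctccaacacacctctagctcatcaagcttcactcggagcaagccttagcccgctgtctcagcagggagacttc
Tdgf1: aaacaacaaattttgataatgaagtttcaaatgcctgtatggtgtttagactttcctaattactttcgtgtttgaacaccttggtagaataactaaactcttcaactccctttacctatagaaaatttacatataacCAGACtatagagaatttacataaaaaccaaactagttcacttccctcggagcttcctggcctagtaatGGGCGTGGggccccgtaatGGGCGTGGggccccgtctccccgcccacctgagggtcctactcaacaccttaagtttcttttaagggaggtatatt

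The Nodal window holds a match to the SOX/TCF core at -242 and a match to the SOX core at -54 from the start, both on the opposite strand, and none to the other 4 motifs. The Tdgf1 window holds a SMAD box at -113 and the SP/KLF box in 2 copies, at -45 and -26. Over the 32851 promoter windows of the table, 49.6% hold the SMAD box, 31.0% the SOX core, 18.7% the SOX/TCF core, 5.33% the SP/KLF box, 0.855% the FOXH1 core and 0.98% its variant. Matches of these letters are a description of the windows and not binding sites.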

How the data were processed

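The 9 samples were 3 each of XX-WT, XY-WT and XY-KO. Per the labels, libraries were made by SPIA amplification of total RNA and read in pairs of 150 nt. Per the submitters' processing notes, the build was GRCm38 and the tools were limma 3.24.0, HTSeq 0.6.1p1, TopHat2 2.0.8 and Trimmomatic 0.30. The files are 3 tables of the authors, 1 per comparison. Per the file headers, each holds a log2 fold change, a mean log2 expression, the limma t and log-odds scores, and the p-value with its Benjamini-Hochberg adjusted p-value, all as deposited. The headers do not name the scale of the mean, which was read as log2 CPM. Per the labels, 50000000 reads per sample were planned; the depth reached is unknown, and no interval or floor from counts was computed.

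Each SE is the ratio of the log2 fold change to t, and 95% intervals used 15.27 degrees of freedom, at which t gave p. Group levels assumed equal weight of the groups in the mean; their SEs follow from the 3 contrast SEs and carry the pooled spread of the fit, not that of a group alone. Symbols were matched for 15192 of 15300 genes. Transcript lengths and shared sequence came from GENCODE M21, promoters from RefSeq. The steps were tested on simulated data. Software was Biopython 1.88, statsmodels 0.14.6, scipy 1.17.1, matplotlib 3.10.9, pandas 2.3.3, numpy 2.4.6 and Python 3.11.15. Alternatives were other thresholds and adjustments, a filter on low genes and removal of a GC content and length trend. Named genes were the 4 members, called pathway and marker genes, 4 regulators and the 5 nearest genes by pattern; neighbours, Y-linked genes and other single genes that did not pass were chosen after values were seen. Some items counted here are not reported by name. The members and lists were chosen with earlier results of these data known.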

Additional observations from a re-analysis of the deposited data

How the results depend on the processing

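No paired analysis was possible because the tables hold comparisons of groups and no sample; for the same reason leaving out each replicate was not run, and whether 1 library decides a value was not tested. Of 60 repeated values of the 4 genes, 51 kept their direction and their side of the threshold. Much of that count was fixed in advance. The stricter threshold, the joint adjustment and Bonferroni leave the fold change as it is, so direction could not change there. A stricter rule also cannot call a gene that did not pass. With the GC content and length trend removed, Nodal (0.07) and Lefty2 (0.04) changed sign in XY-KO against XY-WT, where neither passed under any setting; the cause was not tested. At an adjusted p under 0.01 Nodal no longer passed in XX-WT against XY-WT (-2.30) or XY-KO against XX-WT (2.13). Under Bonferroni adjustment, a stricter rule by construction, 2 of the 4 genes remained called in XX-WT against XY-WT (not Nodal at -2.30 or Lefty1 at -5.49) and 1 in XY-KO against XX-WT (not Nodal at 2.13, Tdgf1 at 4.97 or Lefty1 at 4.74). The 4 genes lie below the median mean level, so a filter there gives them no value. The GC content and length trend was fitted at or above that median, so for the 4 genes it is carried over from more abundant genes.

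In XY-KO against XY-WT, the 347 called genes became 139 at an adjusted p under 0.01, 190 with a change of at least 2-fold, 922 when adjusted over the 3 comparisons together, 55 under Bonferroni and 206 among genes at or above median expression. The 3560 called in XX-WT against XY-WT became 2127 at an adjusted p under 0.01, 1836 at 2-fold, 627 under Bonferroni and 1879 at or above median expression. The 2796 in XY-KO against XX-WT became, in the same order, 1699, 1540, 481 and 1397. Of 14 other pathway genes called in XX-WT against XY-WT, 9 passed at 2-fold and 7 under Bonferroni, and of 12 in XY-KO against XX-WT, 6 passed under Bonferroni. Of 7 germ cell markers called in XX-WT against XY-WT, 4 passed at 2-fold and 0 under Bonferroni, where 8 had an unadjusted p under 0.05 in limma. Of 9 in XY-KO against XX-WT, 5 passed at an adjusted p under 0.01, 5 at 2-fold and 2 under Bonferroni.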
